A study of Marmota monax with 203 samples.

Results

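The livers of placebo-treated woodchucks were compared between the start and the end of the treatment period, to describe how untreated, chronically infected liver changed over the weeks in which the treated animals received interferon. The samples were the biopsies of the placebo group, chosen by label, from study weeks 0 and 3 (early) and study weeks 11 and 15 (late), which the labels number as weeks 1, 4, 12 and 16. There were 43 such biopsies (24 early, 19 late) of 164 in the series. The woodchuck (Marmota monax) is a hibernating ground squirrel. All animals, placebo and treated alike, were captive-born adults infected as newborns with the WHV7-11 inoculum of woodchuck hepatitis virus (WHV), a relative of hepatitis B virus that causes lifelong hepatitis and liver cancer, and all were chronic carriers. The placebo group comprised 12 animals (6 male, 6 female), which received vehicle on the schedule on which the wIFN group received recombinant woodchuck interferon-α, first at a low and then at a higher dose. Of the 12 placebo animals 10 had biopsies from both periods, and animals M1010, F1017 and F1024 died or were euthanized during the study. Biopsies of the 4 weeks were all taken at the same interval after dosing. Their calendar dates and clock hours are not given in the sources used here, and time on study, season, age, duration of infection and number of earlier biopsies advanced together and cannot be told apart.

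The liver is the main organ that turns dietary carbohydrate into fat. Acetyl units are joined by acetyl-CoA carboxylase and fatty acid synthase, lengthened and desaturated by ELOVL6 and SCD, and esterified to triglyceride, under control of the insulin-responsive factors SREBP1c and ChREBP. In the fasted liver these genes are low, while genes of fatty acid oxidation, ketone production and the fasting hormone FGF21 are high. Hepatocytes also secrete the acute phase proteins during inflammation, and many liver genes follow the daily clock, in which ARNTL and NPAS2 drive PER, NR1D1 and DBP, which in turn peak at other hours of the day.

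Many of these needle biopsies contained skeletal muscle, so that MYH2, a fast-fibre myosin that hepatocytes do not make, was used to sort them. A total of 25 of the 43 biopsies (14 early, 11 late) exceeded 100 CPM (the count scaled to a common library size) of MYH2, up to 12961 CPM, and were left out of the main comparison. Before TMM scaling, the nearest biopsy kept had 79.7 CPM (F1024, week 0) and the nearest left out 152.6 CPM (F1019, week 3). The 18 biopsies kept, 10 early and 8 late, held 12962032 to 79459361 reads on genes (median 27925971). The main fit gave each animal its own level, so that its estimate rested on the 4 animals with kept biopsies in both periods (M1001 and M1005, male, and F1017 and F1019, female), each of which had its kept biopsies at weeks 0 and 15. Among these, F1017 was the animal later euthanized with symptoms of liver cancer, and the part of tumour in its values was not tested. A second fit used all 43 biopsies, with the log2 summed level of the skeletal muscle marker list as a covariate, and drew its change from the 10 animals with both periods. It is called the second fit. Its value stands beside a called gene where the gene was not called in it or the 2 log2 values differed by a factor above 1.5. A gene without this value can therefore still differ by more than 1.5-fold between the fits. Examples are CYP2A13 (log2 change 3.40, second fit 2.32) and ST8SIA3 (-4.24, second fit -2.90). Genes were called when the adjusted p was under 0.05 and the change above 1.5-fold. Levels below are CPM after TMM scaling, given as lowest, median and highest of the 10 early and of the 8 late biopsies kept, unless said otherwise. Changes are log2 fold changes of late against early with their standard errors. Of the 14 hepatocyte markers all were tested, and their summed level was 89984 to 139426 CPM (median 118007) early and 71512 to 109710.0 CPM (median 93707) late. ALB, albumin, was at 29340.2, 54811 and 60505 CPM early and 30520.4, 33644 and 47683 CPM late (log2 fold change -0.47 ± 0.17 (SE), adjusted p = 0.066, groups overlapping). The summed level of the skeletal muscle markers in the kept biopsies was 256 to 925 CPM (median 316) early and 174 to 499 CPM (median 289) late. In bulk tissue, fewer cells of a type and less RNA per cell cannot be told apart. The runs of 1 late biopsy (M1008, week 15), deposited under the same barcode, differed from each other far more than other paired runs. Without it 2182 genes were called in place of 2258. M1008 had no kept early biopsy, so this count cannot show how the discordant runs bear on the changes. The biopsy also entered the second fit and the changes of M1008 given below, where its removal alone was not tried. Without all biopsies of M1008 the second fit called 1825 genes in place of 1796.

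Many genes of the untreated liver differed between early and late biopsies. Of 14775 genes tested in the main fit, 1215 were higher late (8.22% of all tested) and 1043 lower (7.06%), for 2258 in all. With all 43 biopsies and the muscle covariate, 875 of 15028 were higher (5.82%) and 921 lower (6.13%). Every count of a gene list below is to be read against these shares of all genes. The fits share biopsies and so are not independent. The 702 genes called higher in both made up 57.8% of the higher genes of the main fit and 80.2% of those of the second, and the 616 called lower in both made up 59.1% and 66.9%. Among the called genes of the main fit, 106 rose and 68 fell more than 4-fold. The median log2 change over all tested genes was -0.016 in the main fit and -0.036 in the second. The 12 genes with the highest and the 12 with the lowest change, among called genes of at least 5 CPM that moved alike in all 4 animals, were also called in the second fit, 24 of 24. Over the 10 animals with both periods, which include those 4, 19 of the 24 moved alike in all. The exceptions were MFSD2A (log2 change -0.49 in M1008), AGPAT9 (0.29 in F1024), ST8SIA3 (0.78 in F1016), MYOM1 (1.76 in F1024) and ALPI (0.068 in M1008).

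Genes of fatty acid and triglyceride synthesis led the increase. Of this list, 13 of 19 tested genes rose and 1 fell, with a median log2 fold change of 1.84, and with the covariate 14 rose and 0 fell (median 1.52); over all genes, 8.22% rose. SCD, the stearoyl-CoA desaturase that makes oleate, was at 174, 767 and 9696 CPM early and 10406, 13778 and 16430.5 CPM late. It rose from 964 to 12789 CPM in M1001, from 334 to 10406 CPM in M1005, from 517 to 10639 CPM in F1017 and from 174 to 15416 CPM in F1019 (log2 fold change 4.86 ± 0.52 (SE), adjusted p = 0.00014, groups not overlapping; second fit 3.60 ± 0.43, adjusted p = 3.5e-08). No late biopsy without muscle was below any early one. FASN, fatty acid synthase, was at 109, 444 and 3169.6 CPM early and 2894, 4515 and 5365 CPM late, rising from 619 to 4699 CPM in M1001, from 112 to 3621 CPM in M1005, from 361 to 3135 CPM in F1017 and from 125 to 4645 CPM in F1019 (log2 fold change 4.07 ± 0.57 (SE), adjusted p = 0.00063, groups overlapping). Its groups overlapped through 2 high early biopsies, F1024 at week 0 (3163 CPM) and M1010 at week 3 (3169.6 CPM). ELOVL6, which lengthens palmitate, was at 108, 133 and 1012 CPM early and 981, 1494 and 1701 CPM late (log2 fold change 3.50 ± 0.27 (SE), adjusted p = 2.6e-05, groups overlapping). PNPLA3, a lipid droplet protein induced by SREBP1c, was at 4.62, 38.9 and 335 CPM early and 111, 559 and 694 CPM late (log2 fold change 4.48 ± 0.36 (SE), adjusted p = 3.0e-05, groups overlapping). The changes of all 4 genes had the same sign in 10 of 10 animals with both periods.

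Other genes of lipid synthesis changed too. ACSS2, which makes acetyl-CoA from acetate, was at 45, 98.2 and 1259 CPM early and 1059, 1375 and 1899.5 CPM late (log2 fold change 3.90 ± 0.40 (SE), adjusted p = 0.00013, groups overlapping). The other genes of the synthesis list that rose were ACACA and ACACB, the acetyl-CoA carboxylases (ACACA 2.73, ACACB 1.84), the esterifying enzymes GPAM (2.66) and DGAT2 (2.71), ACLY (2.25), which splits citrate to acetyl-CoA, THRSP (2.12), ME1, a source of NADPH (1.11), and the regulators SREBF1 (1.79) and MLXIPL, the gene of ChREBP (0.63, second fit 0.46 and not called). FADS1, a desaturase of polyunsaturated fatty acids, was the exception that fell (log2 fold change -0.75 ± 0.21 (SE), adjusted p = 0.021), but not in the second fit (-0.18 ± 0.12, adjusted p = 0.21). MFSD2A, a lysophospholipid transporter, was at 3, 9.27 and 45.9 CPM early and 25.8, 80.1 and 147 CPM late (log2 fold change 3.67 ± 0.34 (SE), adjusted p = 7.6e-05, groups overlapping, second fit 2.31). CIDEC, a lipid droplet protein, rose (log2 fold change 1.48 ± 0.39 (SE), adjusted p = 0.018, second fit 0.72). AGPAT9, an acyltransferase of glycerol-3-phosphate, went the other way, from 0.973, 9.25 and 43.9 CPM early to 0.606, 0.731 and 1.1 CPM late (log2 fold change -4.38 ± 0.40 (SE), adjusted p = 6.6e-05, groups overlapping, second fit -2.86).

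**Figure D1:**
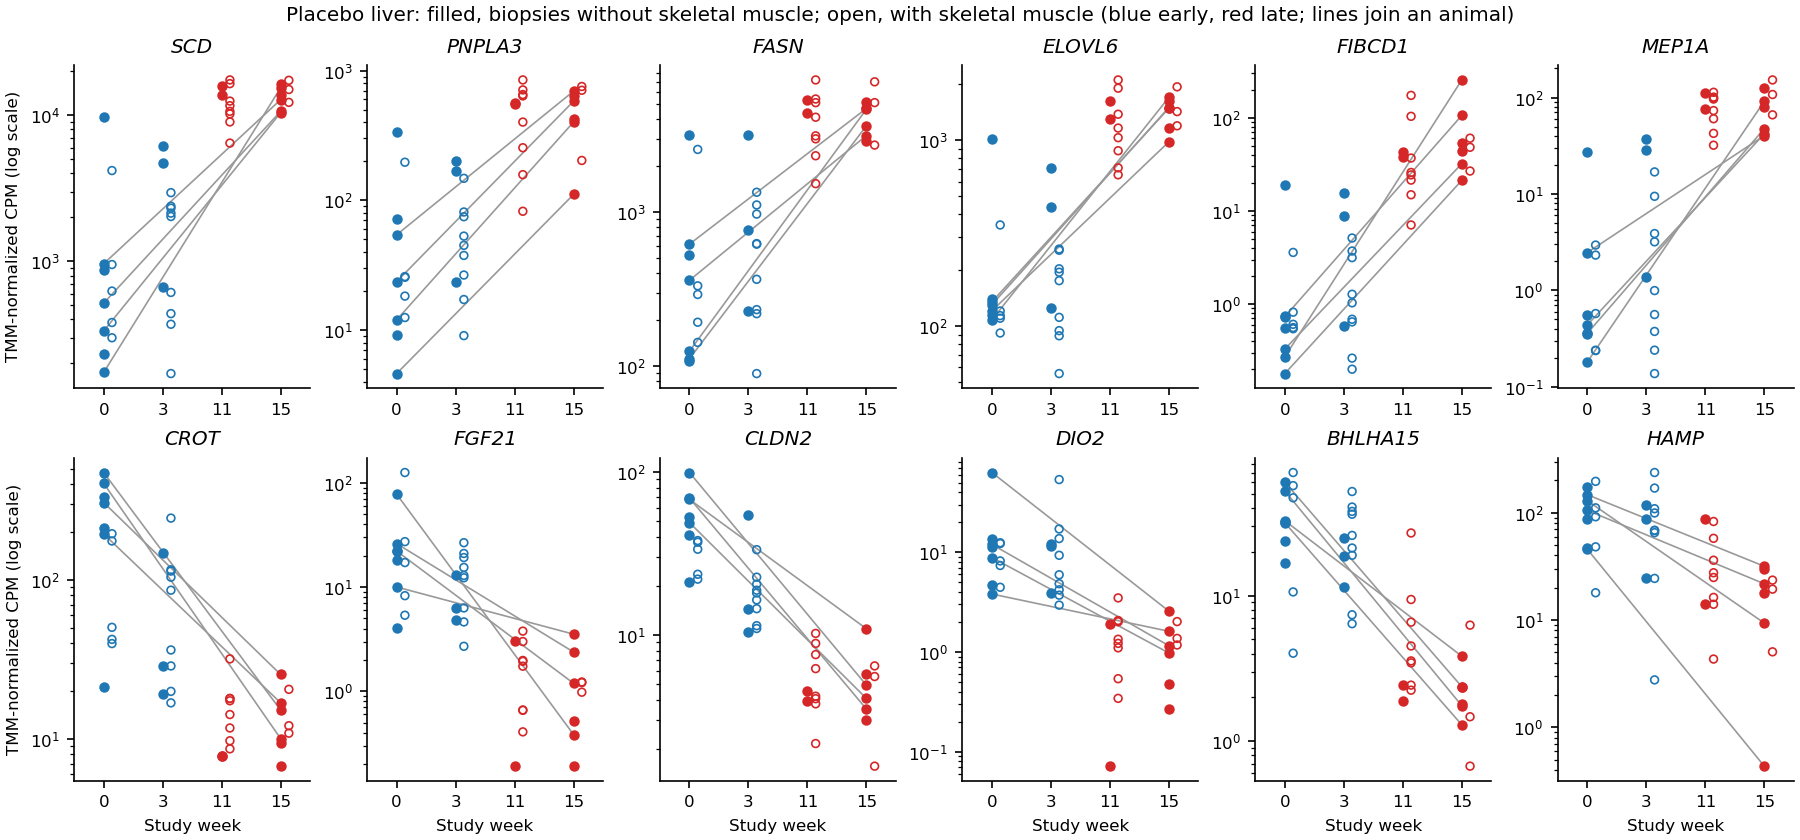
TMM-normalized CPM (log axes) of 12 genes in the 43 placebo biopsies by study week (blue, weeks 0 and 3; red, weeks 11 and 15). Filled points are the 18 biopsies without skeletal muscle, open points the 25 with it, and grey lines join the kept biopsies of the 4 animals of the main fit; late SCD lay at 6452 CPM or higher in all 19 late biopsies, against an early median of 767 CPM over 24.

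Several early biopsies were already near the late levels. F1024 at week 0 had 9696 CPM of SCD, 1012 of ELOVL6, 18.9 of FIBCD1 and 21.2 of CROT, whereas the other 6 kept biopsies of week 0 had 174 to 964 CPM of SCD and 195 to 474 CPM of CROT. M1010 and F1024 at week 3 were alike in this (6161 and 4691 CPM of SCD), and F1015 at week 3 was low (667 CPM). Neither M1010 nor F1024 had a kept late biopsy, so neither contributed to the changes of the main fit. F1024 at week 0 also held the most MYH2 of the kept biopsies.

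Genes of cholesterol synthesis and uptake rose as a group by smaller amounts: 16 of 22 tested genes rose and 0 fell, with a median log2 fold change of 1.07, and with the covariate 13 rose and 0 fell (median 0.79). SQLE, squalene epoxidase, was at 24.8, 42.4 and 105 CPM early and 107, 174 and 341 CPM late (log2 fold change 1.83 ± 0.30 (SE), adjusted p = 0.0015, groups not overlapping). Others that rose were LSS, INSIG1, MSMO1, IDI1, FDFT1, DHCR7, EBP, MVD, NSDHL, FDPS, CYP51A1 and HSD17B7, with changes of 0.64 to 1.58 in the main fit.

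Among genes of fatty acid oxidation and ketone production, 2 of 27 tested genes rose and 6 fell, with a median log2 fold change of 0.023, and with the covariate 1 rose and 5 fell (median -0.080), against 7.06% lower among all genes. Without F1019 3 fell. FGF21, the fasting hormone of the liver, was at 4.01, 15.6 and 78 CPM early and 0.191, 0.855 and 3.54 CPM late (log2 fold change -3.92 ± 0.68 (SE), adjusted p = 0.0021, groups not overlapping). It fell from 10 to 3.54 CPM in M1001, from 26.1 to 2.38 CPM in M1005, from 22.2 to 1.19 CPM in F1017 and from 78 to 0.384 CPM in F1019. CPT1A, which admits fatty acids to mitochondria, fell from 89.3, 233 and 524 CPM to 56, 79.3 and 109.9 CPM (log2 fold change -1.93 ± 0.30 (SE), adjusted p = 0.0012, groups overlapping; 10 of 10 animals). CREB3L3 (-1.01), a fasting-induced transcription factor, PLIN2 (-0.95, second fit -0.55 and not called) and HADHA (-0.77, second fit -0.35 and not called) fell as well. PDK4, which blocks pyruvate entry to the citric acid cycle, went against them (log2 fold change 2.57 ± 0.42 (SE), adjusted p = 0.0015, second fit 1.25). CROT, a peroxisomal acyltransferase not on the list, had one of the lowest changes of all: it was at 19.1, 204 and 474 CPM early and 6.75, 9.74 and 25.4 CPM late (log2 fold change -4.34 ± 0.36 (SE), adjusted p = 3.4e-05, groups overlapping; 10 of 10 animals).

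The remaining genes of the 12 highest had other roles. FIBCD1, a membrane receptor that binds acetylated sugars, rose from 0.732 to 106 CPM in M1001, from 0.18 to 21.2 CPM in M1005, from 0.329 to 32 CPM in F1017 and from 0.272 to 254 CPM in F1019 (log2 fold change 8.12 ± 0.46 (SE), adjusted p = 6.1e-06; second fit 4.98 ± 0.50, adjusted p = 1.6e-09), and was at 0.18, 0.659 and 18.9 CPM early and 21.2, 43.1 and 254 CPM late, with the groups apart. MEP1A, a subunit of the metalloprotease meprin A, was at 0.181, 0.965 and 37.1 CPM early and 40.3, 77.2 and 125 CPM late (log2 fold change 6.10 ± 0.55 (SE), adjusted p = 6.3e-05, groups not overlapping). ALPL, tissue-nonspecific alkaline phosphatase, was at 0, 1.07 and 37.9 and 1.08, 16.8 and 33 CPM (log2 fold change 3.53 ± 0.49 (SE), adjusted p = 0.00059, groups overlapping, second fit 2.04), and the late range lay within the early one. MPP2, a membrane scaffold, was at 0.22, 1.41 and 10.1 and 7.66, 9.16 and 14.6 CPM (log2 fold change 3.48 ± 0.28 (SE), adjusted p = 3.1e-05, groups overlapping, second fit 2.23), and ANKRD65 at 0.211, 0.775 and 19.2 and 1.74, 12.1 and 19 CPM (log2 fold change 3.38 ± 0.19 (SE), adjusted p = 6.1e-06, groups overlapping).

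More enzymes of drug metabolism rose than fell. Among the cytochrome P450 genes, 11 of 25 tested genes rose and 2 fell, with a median log2 fold change of 0.56, and with the covariate 10 rose and 0 fell (median 0.31). CYP2A13 was at 18, 112 and 469 CPM early and 241, 446 and 1576 CPM late (log2 fold change 3.40 ± 0.35 (SE), adjusted p = 0.00013, groups overlapping), with CYP2A6 (2.48, second fit 1.63) and CYP2A7 (3.36) alongside; these near-identical genes may share reads, so that the split among them is uncertain. CYP26A1, which degrades retinoic acid, was at 0.314, 0.784 and 3.66 CPM early and 4.59, 11.7 and 27.4 CPM late (log2 fold change 3.15 ± 0.44 (SE), adjusted p = 0.00064, groups not overlapping). CYP2E1 and CYP4A11 fell in the main fit (log2 fold change -0.66 ± 0.21 (SE), adjusted p = 0.039, and -0.62 ± 0.18, adjusted p = 0.029), and in the second fit both stayed under the fold threshold (-0.57 ± 0.15, adjusted p = 0.0020, and -0.44 ± 0.090, adjusted p = 0.00012). Of the conjugation enzymes, 10 of 30 tested genes rose and 0 fell, with a median log2 fold change of 0.40, and with the covariate 9 rose and 0 fell (median 0.20). The acetyltransferases NAT1 (log2 fold change 1.44 ± 0.19 (SE), adjusted p = 0.00051) and NAT2 (1.36) were among those that rose.

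Amino acid, bile acid and carbohydrate genes shifted too. In the list of urea cycle and amino acid breakdown, 9 of 20 tested genes rose and 1 fell, with a median log2 fold change of 0.43, and with the covariate 7 rose and 0 fell (median 0.39). GLDC, of the glycine cleavage system, was at 60.5, 129 and 472 and 254, 329.7 and 403 CPM (log2 fold change 1.67 ± 0.23 (SE), adjusted p = 0.00055, groups overlapping), and HAL, which breaks down histidine, rose as well (log2 fold change 1.49 ± 0.30 (SE), adjusted p = 0.0047). GLUL, glutamine synthetase, fell in the main fit (log2 fold change -0.60 ± 0.11 (SE), adjusted p = 0.0026, second fit -0.45 and not called). Of the bile acid genes, 8 of 24 tested genes rose and 2 fell, with a median log2 fold change of 0.53, and with the covariate 7 rose and 0 fell (median 0.50). Without F1019 5 rose. KLB, the co-receptor for FGF19 and FGF21, was at 21.6, 39.2 and 116 and 83.8, 111 and 217 CPM (log2 fold change 1.64 ± 0.24 (SE), adjusted p = 0.00086, groups overlapping), and ABCB11, the bile salt export pump, at 102, 158 and 233 and 274, 312 and 627 CPM (log2 fold change 1.21 ± 0.15 (SE), adjusted p = 0.00033, groups not overlapping). CYP7A1, the rate-limiting enzyme of bile acid synthesis, was at 2.88, 6.61 and 54.6 and 12.7, 25.2 and 126 CPM and did not pass (log2 fold change 1.43 ± 0.56 (SE), adjusted p = 0.082, groups overlapping). The uptake carriers SLCO1B1 (-0.67, second fit -0.53 and not called) and SLCO1B3 (-0.65, second fit -0.48 and not called) fell, against 7.06% lower among all genes. In glucose metabolism, 7 of 18 tested genes rose and 2 fell, with a median log2 fold change of 0.38, and with the covariate 3 rose and 1 fell (median 0.29). The risers included GBE1, the glycogen branching enzyme (log2 fold change 1.39 ± 0.23 (SE), adjusted p = 0.0017), PPP1R3C, a glycogen-targeting subunit (1.00, second fit 0.59), and the glycolytic genes PKLR (0.94, second fit 0.30 and not called) and PFKFB1 (0.92, second fit 0.58 and not called). The 2 that fell, FBP1 (-0.82, second fit -0.58 and not called) and PC (-0.67, second fit -0.41 and not called), encode gluconeogenic enzymes, and this count too stands against 7.06% lower among all genes.

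The clock genes shifted in opposite directions. Of the list, 10 of 18 tested genes rose and 3 fell, with a median log2 fold change of 0.93, and with the covariate 8 rose and 5 fell (median 0.39). DBP, an output factor of the clock, was at 1.68, 3.12 and 15 CPM early and 11, 23.2 and 34 CPM late (log2 fold change 3.11 ± 0.25 (SE), adjusted p = 3.1e-05, groups overlapping, second fit 1.79; 10 of 10 animals). ARNTL, the positive arm of the clock, was at 3.87, 12.7 and 22 CPM early and 1.07, 1.43 and 12.2 CPM late (log2 fold change -2.52 ± 0.44 (SE), adjusted p = 0.0021, groups overlapping; 10 of 10 animals), and NPAS2, its partner, at 3.43, 22.9 and 36.7 and 1.41, 2.47 and 12.6 CPM (log2 fold change -2.83 ± 0.36 (SE), adjusted p = 0.00041, groups overlapping). One late biopsy, M1001 at week 15, kept 12.2 CPM of ARNTL, against 1.07 to 1.98 CPM in the other 7. NFIL3, a repressor of DBP's targets, fell (-1.50), while BHLHE41 (1.70, second fit 1.01), PER3 (1.64, second fit 0.93), HLF (1.57, second fit 1.03), NR1D1 (1.47), TEF (1.28), PER2 (1.25), NR1D2 (1.04), CRY2 (0.95, second fit 0.53 and not called) and PER1 (0.92) rose. In the second fit without week 0 the change of PER2 turned sign but did not pass (-0.41, adjusted p = 0.19). The main fit could not be made without that week. Its median was 4.94 CPM at week 0 and 31.1 CPM at week 3, against 16 and 17.1 CPM at weeks 11 and 15, and it did not pass in the second fit (0.25 ± 0.27, adjusted p = 0.45). The part of the hour of biopsy in these values was not tested.

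Most acute phase genes fell. Of the list, 2 of 19 tested genes rose and 12 fell, with a median log2 fold change of -0.77, and with the covariate 2 rose and 9 fell (median -0.52); the summed level of the list was 46870.4 to 110086 CPM (median 70144) early and 26170.1 to 44562 CPM (median 35090.5) late. HAMP, the iron hormone hepcidin, was at 24.8, 96.5 and 173 CPM early and 0.434, 19.7 and 87.5 CPM late (log2 fold change -3.30 ± 0.52 (SE), adjusted p = 0.0012, groups overlapping, second fit -2.16; 10 of 10 animals). SAA1, serum amyloid A, was at 282, 681 and 2155 CPM early and 80.4, 151 and 492.7 CPM late (log2 fold change -1.95 ± 0.57 (SE), adjusted p = 0.026, groups overlapping, second fit -1.29), and its near-identical copy SAA2, with which it may share reads, at 135, 391 and 1517 and 12.2, 44.3 and 229 CPM (log2 fold change -2.84 ± 0.76 (SE), adjusted p = 0.018, groups overlapping, second fit -1.69). The fibrinogen chains FGA (-1.71, second fit -1.04), FGB (-1.79, second fit -1.15) and FGG (-1.83, second fit -1.15), CRP (-1.21, second fit -0.79), LBP (-1.06) and HP (-0.86) fell with them. ORM1 and ORM2, the orosomucoids, rose instead, ORM1 from 573, 1092 and 2678 to 1557, 2026 and 2916 CPM (log2 fold change 1.26 ± 0.19 (SE), adjusted p = 0.00084, groups overlapping; 10 of 10 animals). ID1 (log2 fold change -2.49 ± 0.37 (SE), adjusted p = 0.00090) and SMAD7 (-0.82), which like HAMP respond to bone morphogenetic proteins, also fell. Of the complement genes 0 of 23 tested genes rose and 3 fell, with a median log2 fold change of -0.29, and with the covariate 0 rose and 0 fell (median -0.19), against 7.06% and 6.13% lower among all genes. Of the coagulation genes 0 of 18 tested genes rose and 1 fell, with a median log2 fold change of -0.11, and with the covariate 1 rose and 1 fell (median -0.10).

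Most of the stress response genes fell. Among genes of the unfolded protein and amino acid stress responses, 1 of 25 tested genes rose and 15 fell, with a median log2 fold change of -0.79, and with the covariate 0 rose and 12 fell (median -0.45). CHAC1, induced by ATF4, was at 0.212, 1.1 and 11 and 0.111, 0.296 and 0.479 CPM (log2 fold change -4.32 ± 0.64 (SE), adjusted p = 0.00086, groups overlapping, second fit -2.45), and ASNS, asparagine synthetase, at 5.13, 13.9 and 36.5 and 3.44, 4.77 and 6.03 CPM (log2 fold change -2.39 ± 0.24 (SE), adjusted p = 0.00011, groups overlapping, second fit -1.22). The chaperones and helpers of the endoplasmic reticulum CRELD2 (-2.06), SDF2L1 (-1.74), HSPA5 (-1.32), HYOU1 (-1.14) and MANF (-1.08) were among those that fell, while CALR rose (0.74, second fit 0.53 and not called). BHLHA15, a transcription factor of secretory cells, was at 11.5, 28.2 and 60 CPM early and 1.29, 2.12 and 3.83 CPM late (log2 fold change -4.29 ± 0.26 (SE), adjusted p = 7.0e-06, groups not overlapping). HMOX1, heme oxygenase (log2 fold change -1.90 ± 0.29 (SE), adjusted p = 0.0011), MYC (log2 fold change -2.51 ± 0.26 (SE), adjusted p = 0.00013, second fit -1.64) and EGR1 (log2 fold change -1.44 ± 0.44 (SE), adjusted p = 0.032) fell as well. In the cytosolic ribosomal protein list, 1 of 79 tested genes rose and 15 fell, with a median log2 fold change of -0.47, and with the covariate 1 rose and 7 fell (median -0.39). Without M1001, M1005, F1017 and F1019 in turn, 9, 27, 34 and 8 ribosomal protein genes fell. In the main fit 0 of 12 heat shock and 0 of 34 proteasome genes were called, and in the second fit 1 and 0 fell.

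**Figure D2:**
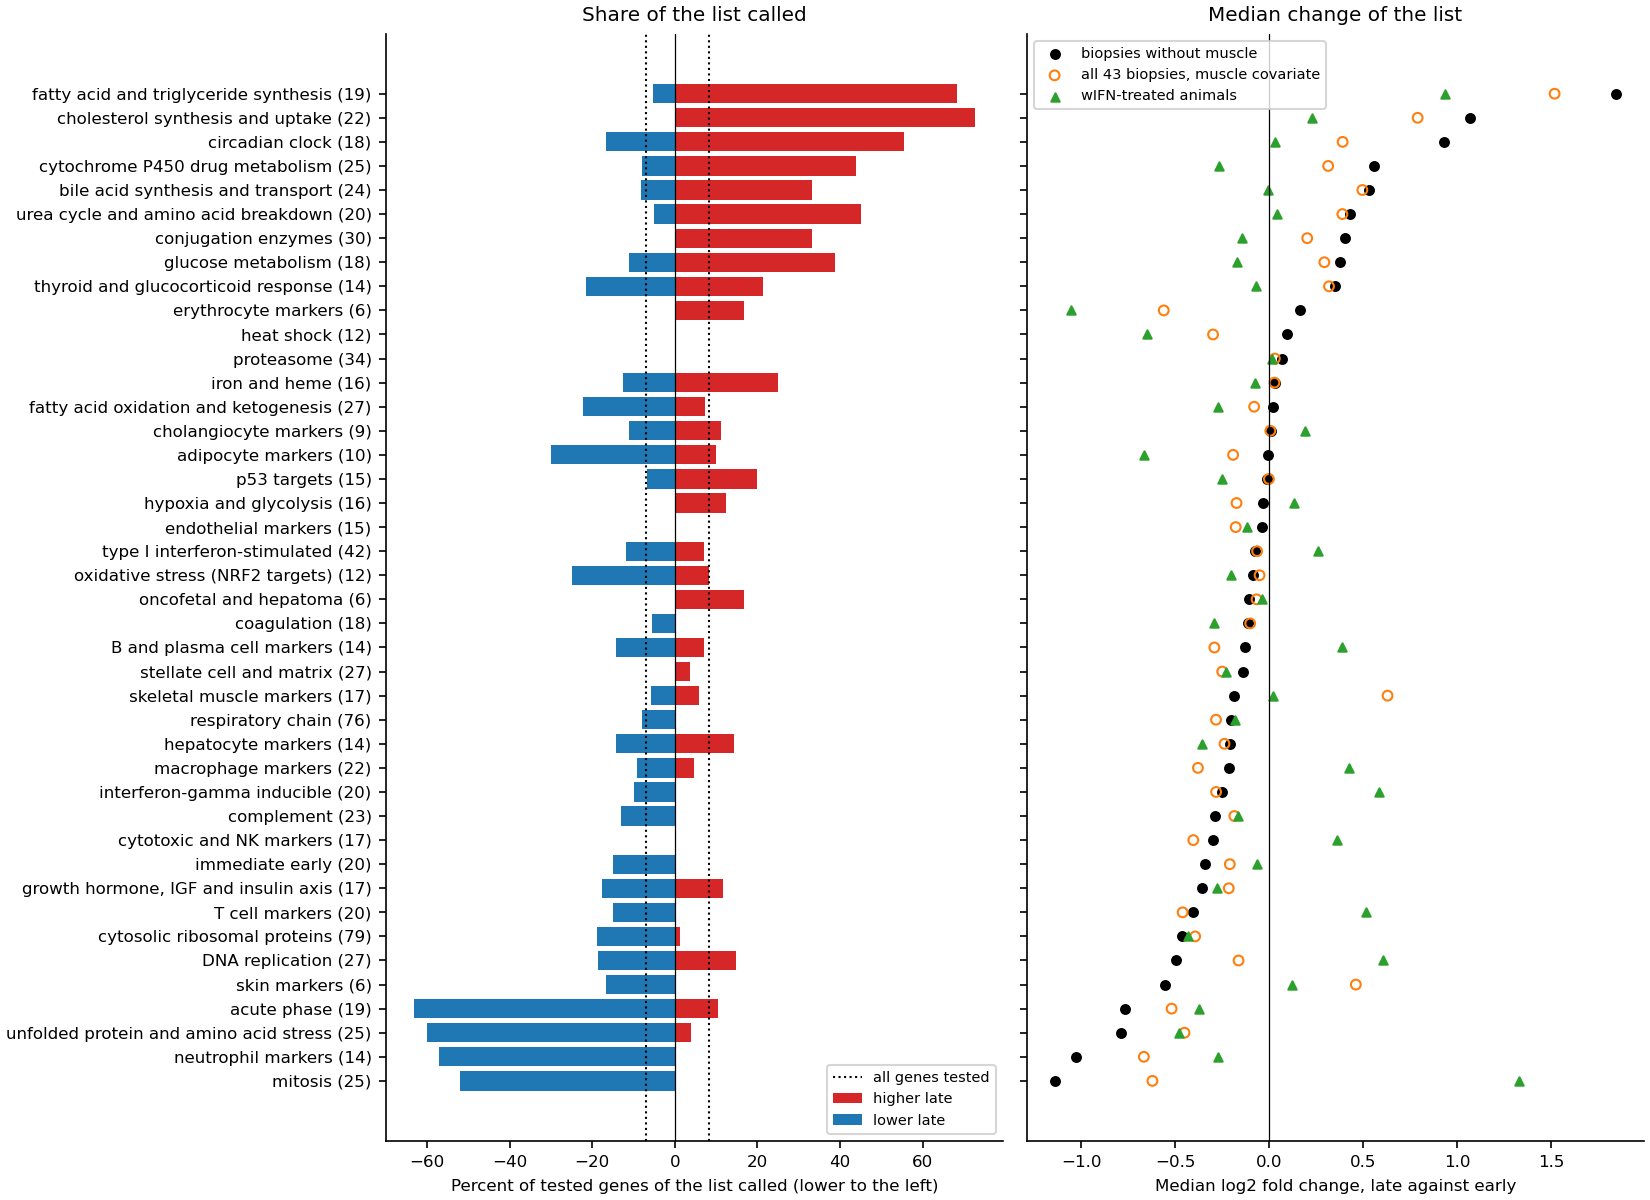
Left, percent of the tested genes (number in brackets) of each list that were called higher (red) or lower (blue) late in the main fit, with dotted lines at the shares of all genes tested, 8.22% and 7.06%; lists with under 5 tested genes are not drawn. Right, median log2 fold change of each list in the main fit (black), with all 43 biopsies and the muscle covariate (open) and in wIFN-treated animals (green); the lipid synthesis lists lie highest and the mitosis, neutrophil, stress and acute phase lists lowest in the placebo liver.

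The remaining genes of the 12 lowest had various roles. DIO2, which activates thyroxine, was at 3.82, 11.4 and 63 CPM early and 0.0718, 1.07 and 2.57 CPM late (log2 fold change -3.21 ± 0.44 (SE), adjusted p = 0.00054, groups not overlapping; 10 of 10 animals), and DIO1 fell less (log2 fold change -0.86 ± 0.14 (SE), adjusted p = 0.0014, second fit -0.51 and not called). CLDN2, a tight junction claudin, was at 10.4, 50.8 and 99 and 3, 4.3 and 10.9 CPM (log2 fold change -3.70 ± 0.26 (SE), adjusted p = 2.1e-05, groups overlapping; 10 of 10 animals). PHF21B was at 6.89, 24 and 34.6 and 0.369, 2.12 and 8.78 CPM (log2 fold change -3.47 ± 0.29 (SE), adjusted p = 3.4e-05, groups overlapping), and PAQR7, a membrane progestin receptor, at 3.81, 15.85 and 72 and 2.8, 4.51 and 5.32 CPM (log2 fold change -3.25 ± 0.42 (SE), adjusted p = 0.00042, groups overlapping, second fit -2.07). ST8SIA3, a sialyltransferase, was at 0.557, 3.15 and 32 and 0.442, 0.776 and 1.43 CPM (log2 fold change -4.24 ± 0.48 (SE), adjusted p = 0.00022, groups overlapping), and ALPI, intestinal alkaline phosphatase, at 0.334, 6.65 and 38.6 and 0.221, 2.64 and 34.2 CPM (log2 fold change -2.99 ± 0.37 (SE), adjusted p = 0.00035, groups overlapping). Without the animal block the calls of ALPI, ALPL and ANKRD65 were lost. MYOM1, a sarcomere protein, fell from 18.6, 149.7 and 293 to 3.42, 7.53 and 52.7 CPM (log2 fold change -4.10 ± 0.17 (SE), adjusted p = 1.3e-06, groups overlapping; second fit -2.18 ± 0.33, adjusted p = 2.1e-06), whereas MYH2 in the same biopsies was at 0.106, 0.474 and 75.1 CPM early and 0.0591, 0.723 and 2.55 CPM late.

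In the growth hormone, IGF and insulin list, 2 of 17 tested genes rose and 3 fell, with a median log2 fold change of -0.36, and with the covariate 1 rose and 4 fell (median -0.21). Over all genes 8.22% rose and 7.06% fell, so that these small counts describe single genes and not the list. GHR, the growth hormone receptor, was at 39.2, 58.9 and 102 CPM early and 111, 134 and 149.6 CPM late (log2 fold change 1.27 ± 0.11 (SE), adjusted p = 3.8e-05, groups not overlapping; 10 of 10 animals). INSR, the insulin receptor, rose (log2 fold change 0.75 ± 0.11 (SE), adjusted p = 0.00076, second fit 0.57 and not called). IGFBP2, a fasting-induced binding protein of the insulin-like growth factors, fell from 246, 657 and 1076 to 137, 252 and 387 CPM (log2 fold change -1.35 ± 0.22 (SE), adjusted p = 0.0015, groups overlapping), as did CISH, an inhibitor of growth hormone signalling (log2 fold change -2.39 ± 0.72 (SE), adjusted p = 0.030, second fit -1.33), and IGF1 (-0.75, second fit -0.46 and not called). SERPINA6, the carrier of corticosteroids in blood, rose (log2 fold change 1.52 ± 0.28 (SE), adjusted p = 0.0032).

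Cell division genes fell or did not pass in mitosis and went both ways in replication. Of the mitosis list, 0 of 25 tested genes rose and 13 fell, with a median log2 fold change of -1.14, and with the covariate 0 rose and 13 fell (median -0.62), and in DNA replication 4 of 27 tested genes rose and 5 fell, with a median log2 fold change of -0.50, and with the covariate 2 rose and 4 fell (median -0.16). Without F1019 4 mitosis genes fell, and without M1005 8. In DNA replication 1 fell without F1019, 1 without F1017 and 3 without M1001. PLK1, a mitotic kinase, was at 1.16, 2.53 and 5.1 and 0.4928, 0.985 and 1.67 CPM (log2 fold change -1.73 ± 0.41 (SE), adjusted p = 0.010, groups overlapping, second fit -0.93), and CDC20, an activator of the anaphase-promoting complex, at 1.3, 2.17 and 5.87 and 0.237, 0.711 and 1.2 CPM (log2 fold change -1.70 ± 0.50 (SE), adjusted p = 0.027, groups not overlapping, second fit -1.01). MKI67, the Ki-67 antigen, was at 9.07, 17.2 and 27.9 and 6.83, 10.3 and 12 CPM and did not pass (log2 fold change -0.81 ± 0.29 (SE), adjusted p = 0.058, groups overlapping). MCM5, of the replicative helicase, fell (log2 fold change -1.36 ± 0.35 (SE), adjusted p = 0.015), while CCNE1, cyclin E1, rose (log2 fold change 1.18 ± 0.31 (SE), adjusted p = 0.016, second fit 0.70). AFP, the oncofetal albumin homologue, was too low to be tested: its median was 0.755 CPM at week 0 and 0.0628 CPM at week 15, with a highest value of 49.1 CPM in M1001 at week 0. GPC3, an oncofetal proteoglycan, rose at a low level (2.94 to 7.4 CPM, medians; log2 fold change 1.18 ± 0.33 (SE), adjusted p = 0.021).

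Markers of other cell types were examined in the same biopsies. Of the neutrophil markers, 0 of 14 tested genes rose and 8 fell, with a median log2 fold change of -1.03, and with the covariate 0 rose and 8 fell (median -0.67), and their summed level was 109.6 to 245 CPM (median 167) early and 77.5 to 113 CPM (median 88.9) late. S100A9 was at 3.1, 8.27 and 19 CPM early and 1.89, 2.43 and 4.37 CPM late (log2 fold change -1.67 ± 0.25 (SE), adjusted p = 0.00085, groups overlapping), and S100A8, S100A12, MMP8, MMP9, CXCR1, CSF3R and LTF fell too. Of the T cell markers 0 of 20 tested genes rose and 3 fell, with a median log2 fold change of -0.41, and with the covariate 0 rose and 5 fell (median -0.46), against 7.06% and 6.13% lower among all genes. Those that fell in the main fit were PDCD1 (-0.90), CD27 (-0.86, second fit -0.54 and not called) and LAT (-0.67, second fit -0.54 and not called), and CD3E, part of the T cell receptor complex, was at 27.3, 35.3 and 55.9 and 24.8, 32.5 and 44 CPM (log2 fold change -0.16 ± 0.12 (SE), adjusted p = 0.34, groups overlapping). Of the B and plasma cell markers 1 of 14 tested genes rose and 2 fell, with a median log2 fold change of -0.13, and with the covariate 0 rose and 3 fell (median -0.29). Of the macrophage markers 1 of 22 tested genes rose and 2 fell, with a median log2 fold change of -0.21, and with the covariate 1 rose and 5 fell (median -0.38). The main fit counts of the B cell and macrophage lists lay near the 8.22% higher and 7.06% lower of all genes. CD68 rose (log2 fold change 0.99 ± 0.12 (SE), adjusted p = 0.00031) and CD163 fell (log2 fold change -1.35 ± 0.30 (SE), adjusted p = 0.0077, second fit -0.73), but CD163 turned to a higher late value without the animal block (0.31). Of the endothelial markers 0 of 15 tested genes rose and 0 fell, with a median log2 fold change of -0.040, and with the covariate 0 rose and 0 fell (median -0.18). Of the cytotoxic and NK cell markers 0 of 17 tested genes rose and 0 fell, with a median log2 fold change of -0.30, and with the covariate 0 rose and 1 fell (median -0.40); the marker called there was NKG7. COL1A1, the fibrillar collagen, was at 14.4, 24.3 and 121 and 14.1, 19.5 and 149 CPM (log2 fold change -0.16 ± 0.58 (SE), adjusted p = 0.86, groups overlapping), and HBB, of red cells, at 18.9, 82.2 and 153 and 28, 46.5 and 81.1 CPM (log2 fold change 0.14 ± 0.43 (SE), adjusted p = 0.83, groups overlapping). The adipocyte list was at 597 to 1237 CPM (median 928) early and 340.3 to 688 CPM (median 491) late in sum. Of its genes 1 of 10 tested genes rose and 3 fell, with a median log2 fold change of -0.0035, and with the covariate 1 rose and 3 fell (median -0.19). LPL (-1.53, second fit -0.96), LEP (-1.13) and FABP4 (-0.91, second fit -0.53 and not called) fell and CIDEC, given above, rose. The part of changing cell numbers in the results above was not tested.

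Interferon-stimulated genes are to be read against the 8.22% higher and 7.06% lower of all genes. Of the type I list, 3 of 42 tested genes rose and 5 fell, with a median log2 fold change of -0.078, and with the covariate 3 rose and 4 fell (median -0.064). Without F1019 3 fell. MX1, an antiviral GTPase, was at 286, 377 and 769 CPM early and 506, 695 and 1073 CPM late and rose (log2 fold change 1.07 ± 0.14 (SE), adjusted p = 0.00051, groups overlapping, second fit 0.71; 10 of 10 animals). HERC5, a ligase for ISG15, was at 36.2, 66.3 and 88.9 and 19.9, 25.7 and 31.8 CPM and fell (log2 fold change -1.46 ± 0.12 (SE), adjusted p = 3.6e-05, groups not overlapping). IFIT2 fell as well (log2 fold change -1.13 ± 0.21 (SE), adjusted p = 0.0029, second fit -0.66). The interferon-gamma inducible genes PSMB8 (-0.72) and TAP1 (-0.71) fell, of 20 tested. Viral RNA was compared per animal. The WHV entry was at 9560.3 to 38236 CPM of the gene reads (median 26423) in the 10 early biopsies and 17886 to 29555 CPM (median 24846) in the 8 late ones. Over the 4 animals with both, the mean log2 change was 0.23 ± 0.54 (SD), higher in 2 of 4 (exact sign-flip permutation test, two-sided p = 0.75), where 4 pairs cannot give a p below 0.125. With all biopsies, over 10 animals, it was 0.051 ± 0.34 (SD; exact p = 0.64, lowest possible 0.0020).

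The other weeks were examined for the same genes. The kept biopsies numbered 8, 7, 3, 8, 2, 6, 4 and 9 at study weeks -3, 0, 3, 7, 11, 15, 19 and 23. Weeks 0 to 15 were sampled at the same interval after a dose, whereas week -3 preceded dosing and weeks 19 and 23 followed its end. The part of this difference in sampling in the values below was not tested. Median SCD in them was 191, 517, 4691, 10494, 14869, 13260.0, 15280.2 and 3644 CPM in that order, so that week 7 (3315 to 16609.6 CPM) was already close to week 15 (10406 to 16430.5 CPM). At week 19 SCD ran from 479 CPM, in M1008, to 17368 CPM over 4 biopsies, and at week 23 from 405 to 13528 CPM. Both weeks thus spanned the early and the late levels. CROT followed the inverse course, with medians of 274, 307, 28.7, 16.1, 7.86, 12.6, 14.4 and 54.3 CPM. FGF21 went from 22.2 CPM at week 0 to 1.73 at week 7, 0.855 at week 15 and 3.5 at week 23. For several genes that fell, week 0 lay above week -3. HAMP had medians of 24.1, 105 and 19.7 CPM at weeks -3, 0 and 15, BHLHA15 of 5.35, 32.2 and 2.08 CPM, and SAA1 of 227, 429 and 129 CPM, so that week -3 was nearer to week 15 than week 0 was. The same held for the summed mitosis list (77.8, 117 and 70.1 CPM) and the summed list of unfolded protein and amino acid stress (4504, 5935 and 4733 CPM). DIO2 stayed low to the end (1.07 CPM at week 15, 0.762 at week 23). MX1 was at 495 CPM at week -3, 351 at week 0 and 702 at week 3, and its week 0 values (286 to 590.5 CPM) overlapped those of week 15 (506 to 767 CPM). DBP had a median of 15.1 CPM at week -3, unlike the 2.62 CPM of week 0.

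**Figure D3:**
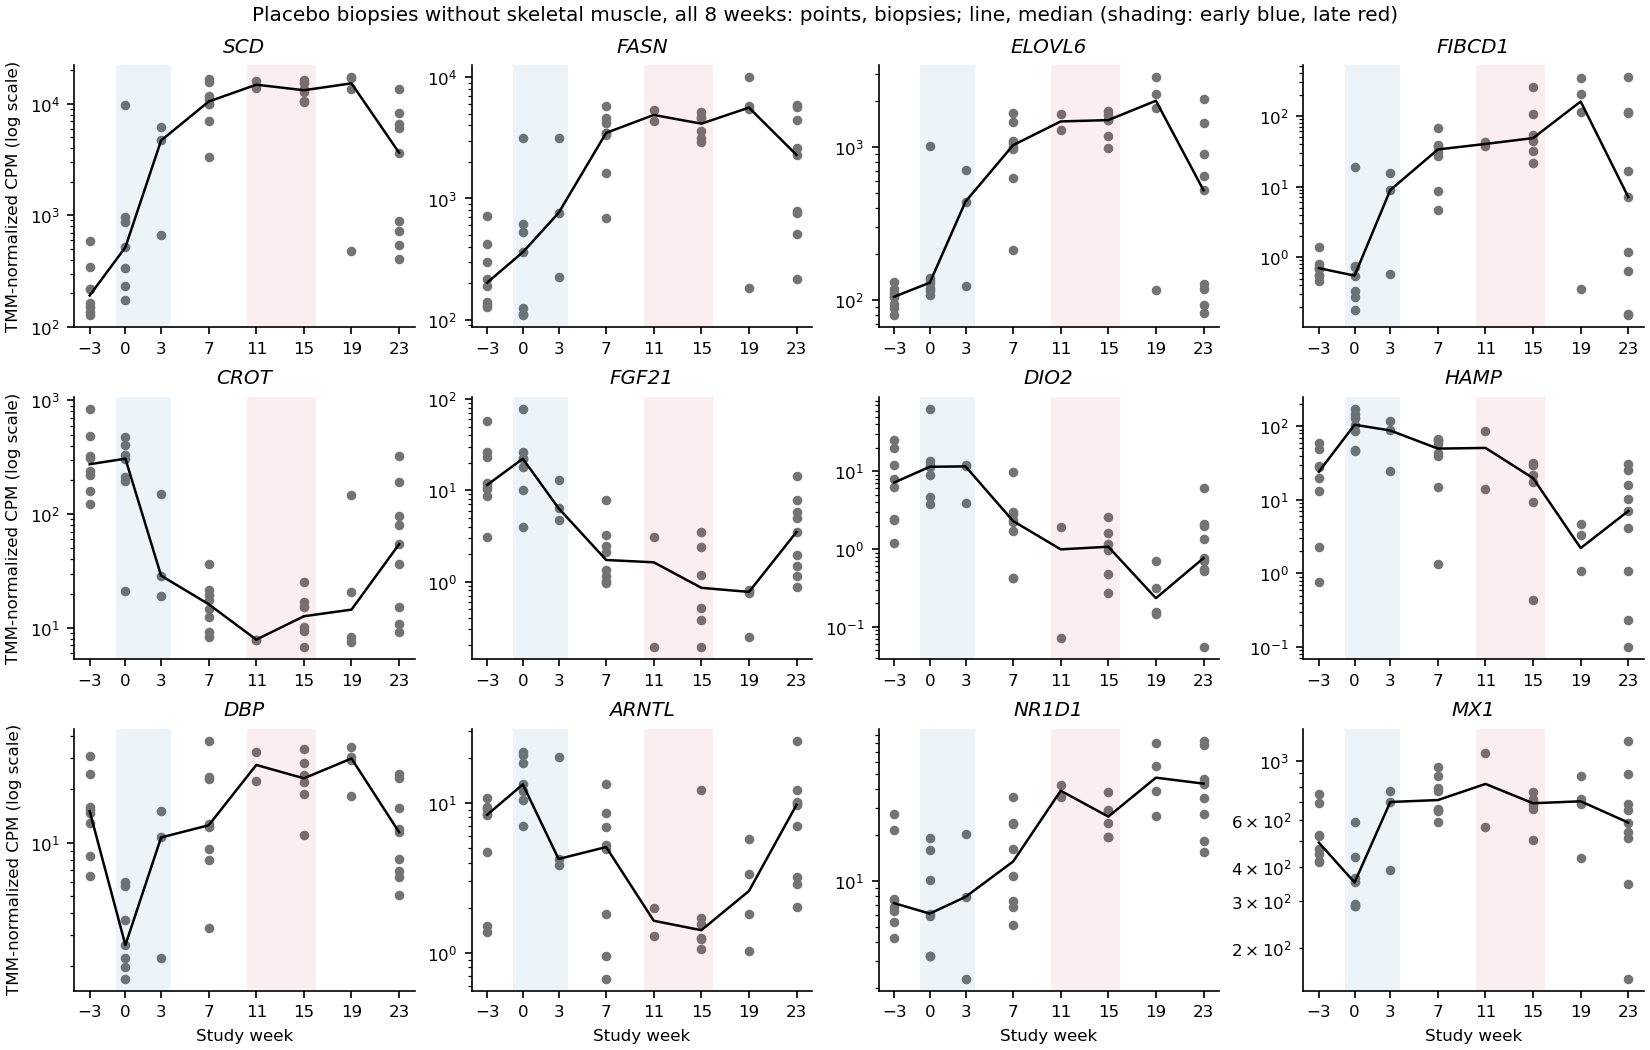
TMM-normalized CPM (log axes) of 12 genes in the placebo biopsies without skeletal muscle at all 8 study weeks (points, biopsies; line, median; blue shading, early; red, late); a HAMP value of 0 at week 19 is not drawn. Median SCD climbed from 517 CPM at week 0 to 10494 CPM at week 7, and at weeks 19 and 23 the biopsies spread over both levels.

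Weeks within a period were compared in smaller fits, whose counts cannot be set against those above. Between weeks 0 and 3 the main fit called 0 genes, with 1 residual degree of freedom and 1379 genes at an unadjusted p under 0.05; DESeq2 called 28. Medians differed between these weeks, as those of SCD and CROT above show, but over 7 and 3 biopsies of largely different animals. Only F1015 and F1024 had kept biopsies at both weeks. SCD rose from 232 to 667 CPM in F1015 and fell from 9696 to 4691 CPM in F1024. CROT fell from 334 to 149 CPM in F1015 and from 21.2 to 19.1 CPM in F1024. With all 24 early biopsies and the muscle covariate 44 genes passed (0.296%), of which 30 had the higher level at week 3 and 14 the lower. Between weeks 11 and 15 no fit with animal as a block was possible without muscle-containing biopsies, since only M1008 had both weeks. Without the block, the 8 late biopsies kept gave 0 called genes, with 363 at an unadjusted p under 0.05. The fit of all 19 late biopsies, with block and covariate, called 1 gene (0.00672%). Between week -3 and week 23, 4 genes were called (0.0269%), with 2255 at an unadjusted p under 0.05. NR1D1, a repressor in the clock, was higher at week 23 (log2 change 2.47 ± 0.27, adjusted p = 0.047), as was LINC00273 (2.33), and PREX2 (-2.67) and TLR5 (-2.06) were lower. Of the genes called higher late in the main comparison and tested here, 795 of 1197 also had a positive estimate at week 23 against week -3 (median 0.18), and of those called lower 660 of 1033 had a negative one (median -0.17). The median over all 14889 genes tested in this fit was 0.026. The share of all genes with a positive estimate was not taken, and the fits share animals, so these counts do not measure agreement.

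The same weeks were compared in wIFN-treated animals. These received the low dose in the early weeks and the higher dose in the late ones, so that period and dose cannot be told apart in them or in the interaction. In 24 biopsies without muscle, 818 genes rose (5.53%) and 706 fell (4.77%). Of the genes higher in placebo livers and tested here, 240 of 1188 rose as well (20.2%, and 29.3% of the genes that rose with wIFN) and 12 fell. Of the lower ones 276 of 1033 fell (26.7% and 39.1%) and 67 rose. Lipid synthesis genes also rose with wIFN: 9 of 19 rose (median 0.93), SCD with a log2 change of 1.93 ± 0.52, adjusted p = 0.0098, FASN with 1.88 ± 0.64, adjusted p = 0.033 and ELOVL6 with 1.39 ± 0.35, adjusted p = 0.0073. The difference between the agents was tested as an interaction, in which 579 of 15277 genes had a more positive change with wIFN (3.79%) and 496 a more negative one (3.25%). By this test the change was smaller with wIFN for SCD (adjusted p = 0.048), PNPLA3 (0.048) and ELOVL6 (0.033), and did not pass for FASN (0.21). These genes were picked for their change with placebo, which the test uses again, so that a smaller change with wIFN was favoured beforehand. Of all 1215 genes called higher with placebo, 311 had a more negative change with wIFN and 0 a more positive one. Of the 1043 lower genes, 247 had a more positive change and 0 a more negative one. Both sets were likewise picked for their change with placebo, so that these one-sided counts were favoured beforehand and are no separate result. FGF21 also fell in treated animals, with a log2 change of -3.42 ± 0.47, adjusted p = 0.00012 (interaction adjusted p = 0.76).

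The mitosis genes differed between the agents. In placebo livers 13 of 25 fell and 0 rose (4 fell without F1019), and in wIFN-treated livers 23 of 25 rose and 0 fell (median 1.33). The summed level of the list in kept placebo biopsies had medians of 77.8, 117, 77.7 and 70.1 CPM at weeks -3, 0, 3 and 15. Week 3, and week -3 before dosing began, thus lay nearer to week 15 than to week 0, and the placebo fall rested largely on a high week 0. In the interaction 22 of 25 had a more positive change with wIFN, against 3.79% of all genes. MKI67 had a median of 17.2 CPM early and 10.3 CPM late with placebo, and of 14.2 and 35.2 CPM with wIFN (log2 change 1.37 ± 0.30, adjusted p = 0.0032; interaction adjusted p = 0.018). DNA replication genes showed 12 of 27 with a more positive change. Of the conjugation enzymes 7 of 30 and of the cytochrome P450 genes 5 of 25 had a more negative one.

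**Figure D4:**
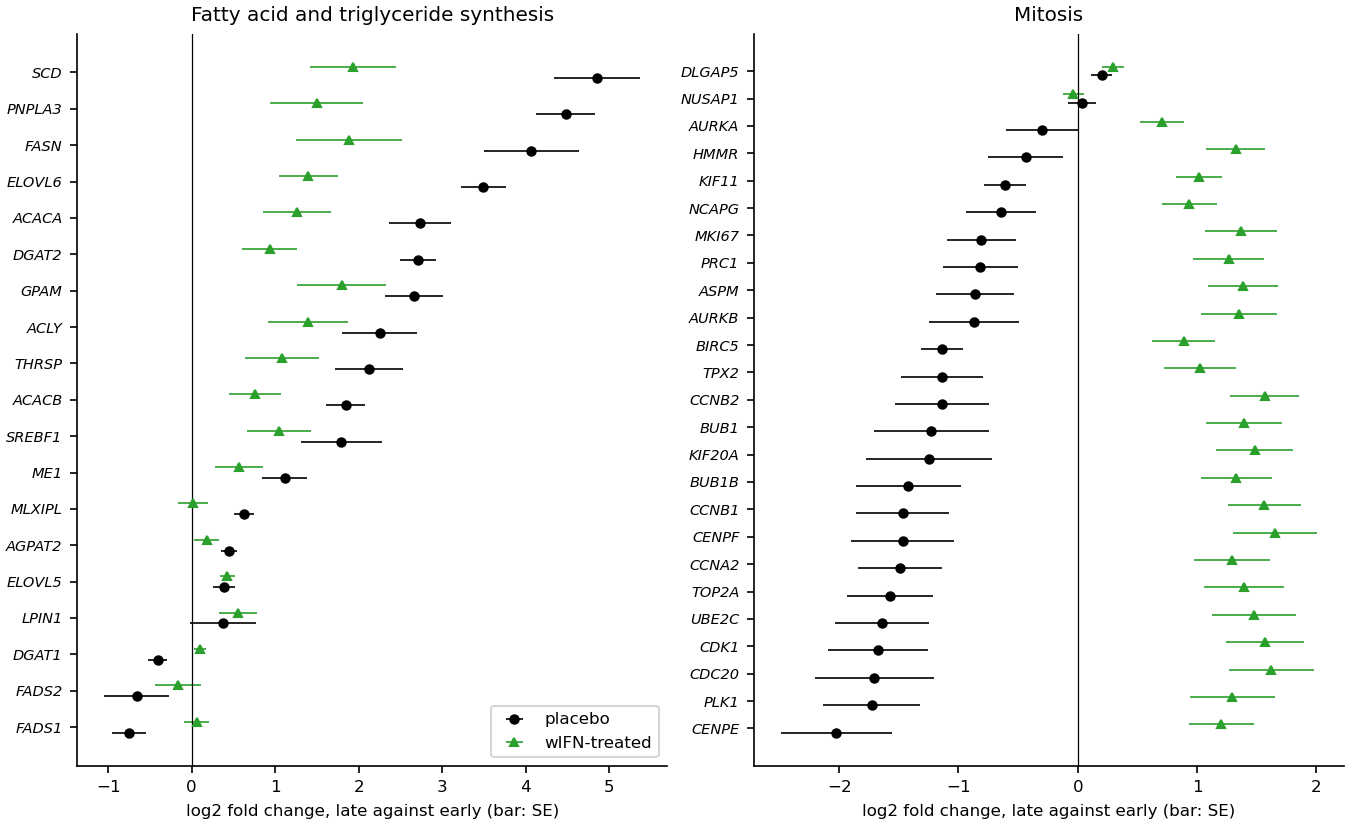
log2 fold change of late against early (bars, SE) of the genes of fatty acid and triglyceride synthesis (left) and of mitosis (right) in placebo (black, 18 biopsies) and wIFN-treated livers (green, 24 biopsies). Lipid synthesis genes lie above 0, except FADS1, FADS2 and DGAT1 with placebo and FADS2 with wIFN, whereas mitosis genes lie below 0 with placebo, except NUSAP1 and DLGAP5, and above 0 with wIFN, except NUSAP1.

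The change was also compared between males and females. The interaction of period with sex passed for 1 of 15180 genes (0.00659%), with 1181 at an unadjusted p under 0.05; DESeq2 called 110. That gene was LEPR, the leptin receptor, whose change in females minus that in males was -3.47 ± 0.26 on the log2 scale (adjusted p = 0.0013), from 2 males and 2 females. With all 43 biopsies the difference was -0.72 (adjusted p = 0.67).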

How the data were processed

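Liver RNA of chronically WHV-infected woodchucks was sequenced as poly(A)-selected, unstranded paired reads of 50 bases. The authors mapped reads with Bowtie2 to their own woodchuck transcriptome assembly, annotated with human-style symbols, and deposited expected counts per gene beside RPKM values, which were not used. Of the nonzero counts, 118 of 3368022 were fractional and were rounded. Counts of the runs of a biopsy were summed. Reads on the WHV entry entered neither the library sizes nor the fits.

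Groups came from the labels. The main comparison used edgeR 4.0.16 (R 4.3.3): filterByExpr, TMM, animal as a block and the quasi-likelihood test with Benjamini-Hochberg adjustment over all genes tested. Animals pair the biopsies: deviations from the period means correlated in 4 of 4 pairs of the same animal (median r = 0.46, against -0.066 over 76 pairs of different animals). The second fit kept all 43 biopsies and added the log2 CPM of the skeletal muscle list as a covariate; for the other comparisons, and in combination with lane or weeks, this fit was chosen after seeing the data. The comparison of weeks 15 and 11 was designed without muscle-containing biopsies and with animal as a block but could not be fitted so. Animal 1004 of the wIFN group was left out, as in the study. DESeq2 1.42.0 and limma 3.58.1 were alternatives. The tests were tried on simulated counts first.

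The 43 gene lists (979 genes, 953 in the files) and the comparison were chosen with earlier results of these data known. Named genes were the 12 highest and 12 lowest changes among called genes of at least 5 CPM moving alike in every animal, up to 2 higher and 2 lower called genes of at least 1 CPM per list, 14 further genes chosen as landmarks, and the 5 highest and lowest of the interactions and of week 23 against week -3. Other called genes named in the text were chosen after their values were seen. Some called genes are not reported here. Depth per biopsy limits genes under about 1 CPM.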

Additional observations from a re-analysis of the deposited data

Results flagged for a closer look

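The change from early to late differed between placebo and wIFN-treated livers for 1075 genes by the interaction test. The difference is the log2 change with wIFN minus that with placebo. Among genes of at least 5 CPM the most negative differences were -6.69 for FIBCD1, -3.68 for ALPL, -3.36 for LOC100505974, -3.33 for CYP2A7 and -3.31 for CYP2A13. FIBCD1 changed by 8.12 ± 0.46 with placebo and by 1.30 ± 0.73 with wIFN (interaction adjusted p = 0.011). CYP2A13 changed by 3.40 ± 0.35 and 0.088 ± 0.33 (interaction adjusted p = 0.0046).

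The most positive differences were 3.34 for CDC20, 3.24 for AREG, 3.16 for PLA2G2A, 3.12 for IQGAP3 and 3.09 for ST8SIA3. AREG, the growth factor amphiregulin, changed by -1.26 ± 0.29 with placebo and by 1.98 ± 0.32 with wIFN (interaction adjusted p = 0.0063). PLA2G2A, a secreted phospholipase, changed by -2.57 ± 0.24 and 0.57 ± 0.38 (interaction adjusted p = 0.011). With all biopsies and the muscle covariate the 10 differences kept their sign and an adjusted p under 0.05 but were smaller: -3.49 for FIBCD1, -1.82 for ALPL, -1.73 for LOC100505974, -1.99 for CYP2A7, -1.94 for CYP2A13, 2.32 for CDC20, 2.91 for AREG, 2.63 for PLA2G2A, 1.79 for IQGAP3 and 1.81 for ST8SIA3. In the treated animals the late weeks were also those of the higher dose.

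The period by sex difference of LEPR was -3.47 and did not pass in the fit of all biopsies. Over the 10 animals with both periods, 0 of 25 sets of changes (24 genes and WHV) held an animal far from the rest by Dixon's test, which chance flags in about 1 of 20 sets.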

How the results depend on the processing

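The number of genes called late against early stayed within 1.5 times of 2258 under DESeq2 (2220), limma-voom (2249), RLE scaling (2262), no low-count filter (2280), sums per animal and period, the deepest run only and all biopsies with (1796) or without (1971) the covariate. Higher genes alone fell from 1215 to 778 without the animal block (850 lower) and, with the covariate, to 759 in biopsies under 1% muscle reads (941 lower) and 720 without week 0 (817 lower). A fold threshold of 2 left 938 genes, and 503 for wIFN. Leaving out 1 of the 4 animals gave 1650 to 2339 genes (1622 to 1909 with the covariate, over 10 animals; 1 to 5 for period by sex). Without the pairing by animal 1628 genes were called, 1078 for week 23 against week -3, 1511 for wIFN, 0 for week 3 against week 0 and 0 for week 15 against week 11. The lane as a covariate, and leaving out week 0 or week 15, could not be fitted in the 18 biopsies; with the covariate and all biopsies they gave 1958, 1537 and 1663. DESeq2, RLE scaling and no filter could not be run for week 15 against week 11, where all biopsies without adjustment gave 0. The smaller comparisons moved more: week 3 against week 0 gave 28 genes by DESeq2, 10 by RLE scaling, 44 with the covariate and 94 without; week 23 against week -3 gave 582 by DESeq2, 29 with no filter, 1 with the covariate and 247 without; period by agent gave 1799 by DESeq2, 2696 with the covariate and 2682 without; period by sex gave 110 by DESeq2, 6 with no filter, 0 with the covariate and 0 without. The cause was not tested.

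Of 132 named genes called in the main fit, 132 kept their sign and 103 their call with the covariate. Without M1001, M1005, F1017 and F1019 in turn, 16, 19, 21 and 36 of the 132 lost their call, FBP1, PLK1 and CDC20 among those lost without F1019. Signs turned for TNNC1 with all biopsies unadjusted (-0.80), CD163 without the block (0.31), KRT14 with the covariate and lane (0.041), without week 0 (0.73) or without M1008 (0.14), FADS1 with the covariate without week 0 (0.028) or week 15 (0.070), and ALAS1 (-0.049) and PER2 (-0.41) with the covariate without week 0. The WHV change kept its sign and missed the threshold throughout (0.051 to 0.23); without week 0 or week 15 no animal had both periods.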
